A study of Mus musculus with 12 samples.

Results

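The central-vein genes Glul, Oat, Slc1a2, Rhbg, Axin2, Lgr5, Rnf43, Znrf3, Tbx3 and Lect2 were followed through liver RNA of mice with floxed Lpcat3, with and without cre, on control feeding or on an NIAAA diet. They were taken by symbol as targets of WNT and beta-catenin signalling in hepatocytes around the central vein. All 10 of the 10 symbols were found among the 55401 genes of the deposited table, and all 10 were among the 19014 genes that passed the filter on low counts.

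In the liver lobule, endothelial cells of the central vein secrete WNT ligands and R-spondins. Where these reach hepatocytes, beta-catenin is not degraded and enters the nucleus, where it acts with TCF factors on target genes. The hepatocytes around the vein then make glutamine from ammonia, while those at the portal end run the urea cycle and gluconeogenesis. Axin2, Rnf43 and Znrf3 are targets that damp the signal, and LGR5 is a receptor for R-spondins that strengthens it.

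Floxed mice (FLOX, genotype LPCAT3flox/flox) and Cre mice (LKO, genotype LPCAT3flox/flox-cre) were compared, so both genotypes carried the floxed alleles. Lpcat3 encodes an enzyme that puts polyunsaturated fatty acids into phospholipids, and the series title concerns its role in the liver in alcoholic injury. Each genotype was on control feeding (NC) or on the NIAAA diet (ALD), a mouse model of alcoholic liver injury. All were labelled male C57BL/6 mice aged 8 to 10 weeks. The labels do not state the promoter of cre, the steps of the diet or whether each library came from its own animal, and the p-values measure only the spread between these libraries. Within groups, pairs of libraries differed by a chi-square per degree of freedom of 37.8 to 784, above counting noise. There were 3 libraries of floxed controls (FLOX-NC), 2 of Cre controls (LKO-NC), 3 of floxed mice on the diet (FLOX-ALD) and 3 of Cre mice on the diet (LKO-ALD). The third library that the labels list for the Cre controls was not analysed here.

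The 11 libraries held 39.06 to 73.56 estimated counts in units of 1e+06. Lpcat3 was lower in every Cre library than in every floxed library on the same feeding, at 87.1 to 103 CPM (counts scaled to a library total of 1e+06) in the floxed controls, 29.2 and 37.2 in the Cre controls, 30.5 to 43.2 in floxed mice on the diet and 9.80 to 15.4 in Cre mice on the diet. FLOX-ALD replicate 1, labelled male, went against its label, with Xist at 772 CPM against at most 2.95 in the other libraries and Y-linked genes at 0 against 135 to 227 CPM. Mitochondrially encoded genes took 25.3% of counts in the first Cre control (LKO-NC replicate 1) and 22.3% and 26.4% in FLOX-ALD replicates 2 and 3, against 12.1% to 15.4% in the other 8 libraries. Values without single libraries are given beside the results they moved most.

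Per length, Glul and Oat were the most abundant of the 10 genes and Znrf3 and Lgr5 the least. Mean FPKM over the 11 libraries, the deposited value scaled by gene length and depth, was highest for Glul at 365 and Oat at 266, followed by Lect2 at 108 and Slc1a2 at 22.4. Tbx3 followed at 7.78 FPKM, Rhbg at 5.67, Rnf43 at 3.10, Axin2 at 1.85, Znrf3 at 1.31 and Lgr5 at 1.26. Lect2 and Slc1a2 were the only neighbours in this order whose ranges over the 11 libraries did not overlap, at 63.0 to 138 and 11.6 to 49.8 FPKM. Rhbg varied most, with a highest library 15.7 times its lowest, and Lect2 varied least, at 2.19 times. The 4 genes of nitrogen metabolism, Glul, Oat, Slc1a2 and Rhbg, and the 6 others are described below in CPM after scaling by trimmed mean of M-values (TMM), which compares a gene between libraries but not 1 gene with another.

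The starts of these genes are shown for the 3 nitrogen genes with a RefSeq promoter window and for Axin2 and Lect2, since the first 3 varied together over the libraries and the other 2 correlated with them at −0.058 to 0.297 (Pearson's r of log2 CPM, 11 libraries, a description). Each line gives the 250 bases before a RefSeq start on build GRCm38, which is mm10, read 5′ to 3′ on the gene's strand, with the letters of a TCF/LEF motif in capitals.
Glul, chr1:153899679-153899928, + strand: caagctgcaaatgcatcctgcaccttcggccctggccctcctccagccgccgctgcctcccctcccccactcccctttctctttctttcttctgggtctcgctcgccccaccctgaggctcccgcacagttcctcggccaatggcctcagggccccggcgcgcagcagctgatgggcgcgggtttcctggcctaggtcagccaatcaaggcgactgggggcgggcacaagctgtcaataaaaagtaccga
Oat, chr7:132576399-132576648, - strand: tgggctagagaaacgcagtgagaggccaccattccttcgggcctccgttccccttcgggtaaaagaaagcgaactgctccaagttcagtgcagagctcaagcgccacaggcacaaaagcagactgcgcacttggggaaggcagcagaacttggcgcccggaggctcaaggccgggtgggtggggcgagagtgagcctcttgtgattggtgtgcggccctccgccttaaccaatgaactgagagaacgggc
Slc1a2, chr2:102706188-102706437, + strand: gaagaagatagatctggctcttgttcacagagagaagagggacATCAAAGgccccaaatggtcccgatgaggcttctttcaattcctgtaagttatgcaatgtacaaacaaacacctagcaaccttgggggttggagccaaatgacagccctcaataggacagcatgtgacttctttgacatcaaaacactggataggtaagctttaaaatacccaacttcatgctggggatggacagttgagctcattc
Axin2, chr11:108920099-108920348, + strand: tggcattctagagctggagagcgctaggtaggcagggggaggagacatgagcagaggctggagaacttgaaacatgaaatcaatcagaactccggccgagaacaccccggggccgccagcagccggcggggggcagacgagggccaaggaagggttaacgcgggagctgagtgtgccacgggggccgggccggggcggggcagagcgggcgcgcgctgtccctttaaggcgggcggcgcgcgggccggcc
Lect2, chr13:56548539-56548788, - strand: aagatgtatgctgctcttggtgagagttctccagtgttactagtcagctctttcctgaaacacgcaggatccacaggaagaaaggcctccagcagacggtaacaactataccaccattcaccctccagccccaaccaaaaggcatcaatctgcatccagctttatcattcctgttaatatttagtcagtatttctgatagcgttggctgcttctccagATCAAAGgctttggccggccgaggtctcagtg
The motif was searched as CTTTGAA or CTTTGAT on both strands. Matches on opposite strands can overlap, and no window shown held more than 1. It stood once in the Slc1a2 window, 207 bases before the start, and once in the Lect2 window, 32 bases before the start, both as CTTTGAT on the opposite strand. It was not in the windows of Glul, Oat and Axin2 or in both windows of Rnf43, and RefSeq windows were held for 6 of the 10 genes. Of 32851 windows of this length over all genes, 7.48% held a match, and a match here is a description of letters only. The Slc1a2 window lies inside the gene, at the start of transcripts ENSMUST00000005220 and ENSMUST00000111212, which took a mean of 8.08% and 1.41% of the gene's counts. The transcript with most of them, ENSMUST00000080210 at 90.4%, starts at position 102658659 of chromosome 2.

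The clearest pattern among the 10 genes was in nitrogen metabolism. Glul encodes glutamine synthetase, which joins ammonia to glutamate (ENSMUSG00000026473, chr1:153899944-153909723, + strand, mm10 as for all positions below). In replicate order it stood at 967, 915 and 744 CPM in the floxed controls, 599.6 and 889 in the Cre controls, 1578, 1874 and 802 in floxed mice on the diet and 1711, 1140 and 1978 in Cre mice on the diet. All 3 LKO-ALD libraries lay above both LKO-NC libraries, while FLOX-ALD replicate 3 lay within the range of FLOX-NC. Group means were 875 ± 116 CPM (SD, n = 3) in the floxed controls, 744 ± 204.5 (n = 2) in the Cre controls, 1418 ± 554 (n = 3) in floxed mice on the diet and 1610 ± 428 (n = 3) in Cre mice on the diet.

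Oat encodes ornithine aminotransferase, which turns ornithine into a precursor of glutamate (ENSMUSG00000030934, chr7:132557478-132576398, - strand). Its libraries read 473, 506 and 599 CPM in the floxed controls, 303 and 396 in the Cre controls, 616, 1180 and 352.5 in floxed mice on the diet and 1186, 1006 and 880 in Cre mice on the diet. The LKO-ALD libraries all exceeded LKO-NC, and FLOX-ALD spread from below to above every FLOX-NC library. Oat stood at 526 ± 65.0 CPM in the floxed controls, 349.8 ± 65.7 in the Cre controls, 716 ± 422.5 in floxed mice on the diet and 1024 ± 154 in Cre mice on the diet (SD, n = 3, 2, 3 and 3).

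Slc1a2 encodes the glutamate transporter GLT-1 (ENSMUSG00000005089, chr2:102658659-102790784, + strand). It was measured at 168, 181 and 146 CPM in the floxed controls, 121 and 113 in the Cre controls, 286, 390.4 and 143 in floxed mice on the diet and 309.7, 205 and 223 in Cre mice on the diet. As with Oat, FLOX-ALD replicate 3 lay below all control libraries of its genotype, whereas for Glul it lay within their range. FLOX-ALD replicates 1 and 2 exceeded those controls for each of these genes. Its means were 165 ± 17.6 CPM in the floxed controls, 117 ± 5.47 in the Cre controls, 273 ± 124 in floxed mice on the diet and 246 ± 56.1 in Cre mice on the diet (SD, n = 3, 2, 3 and 3).

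Rhbg encodes a membrane channel for ammonia (ENSMUSG00000104445, chr3:88242874-88254709, - strand). Its values were 5.05, 6.175 and 5.28 CPM in the floxed controls, 2.90 and 6.48 in the Cre controls, 11.1, 48.9 and 8.05 in floxed mice on the diet and 25.2, 9.69 and 15.98 in Cre mice on the diet. Rhbg was the only one of the 10 genes whose 6 NIAAA libraries all lay above all 5 control libraries, and FLOX-ALD replicate 2 stood far above the rest. Group means were 5.50 ± 0.595 CPM in the floxed controls, 4.69 ± 2.53 in the Cre controls, 22.7 ± 22.7 in floxed mice on the diet and 16.97 ± 7.82 in Cre mice on the diet (SD, n = 3, 2, 3 and 3). Of the exon bases of Rhbg, 61.4% are shared with Gm38392 on the same strand, which had a count of 0 in all 11 libraries, so how counts were divided between them is uncertain.

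**Figure D1:**
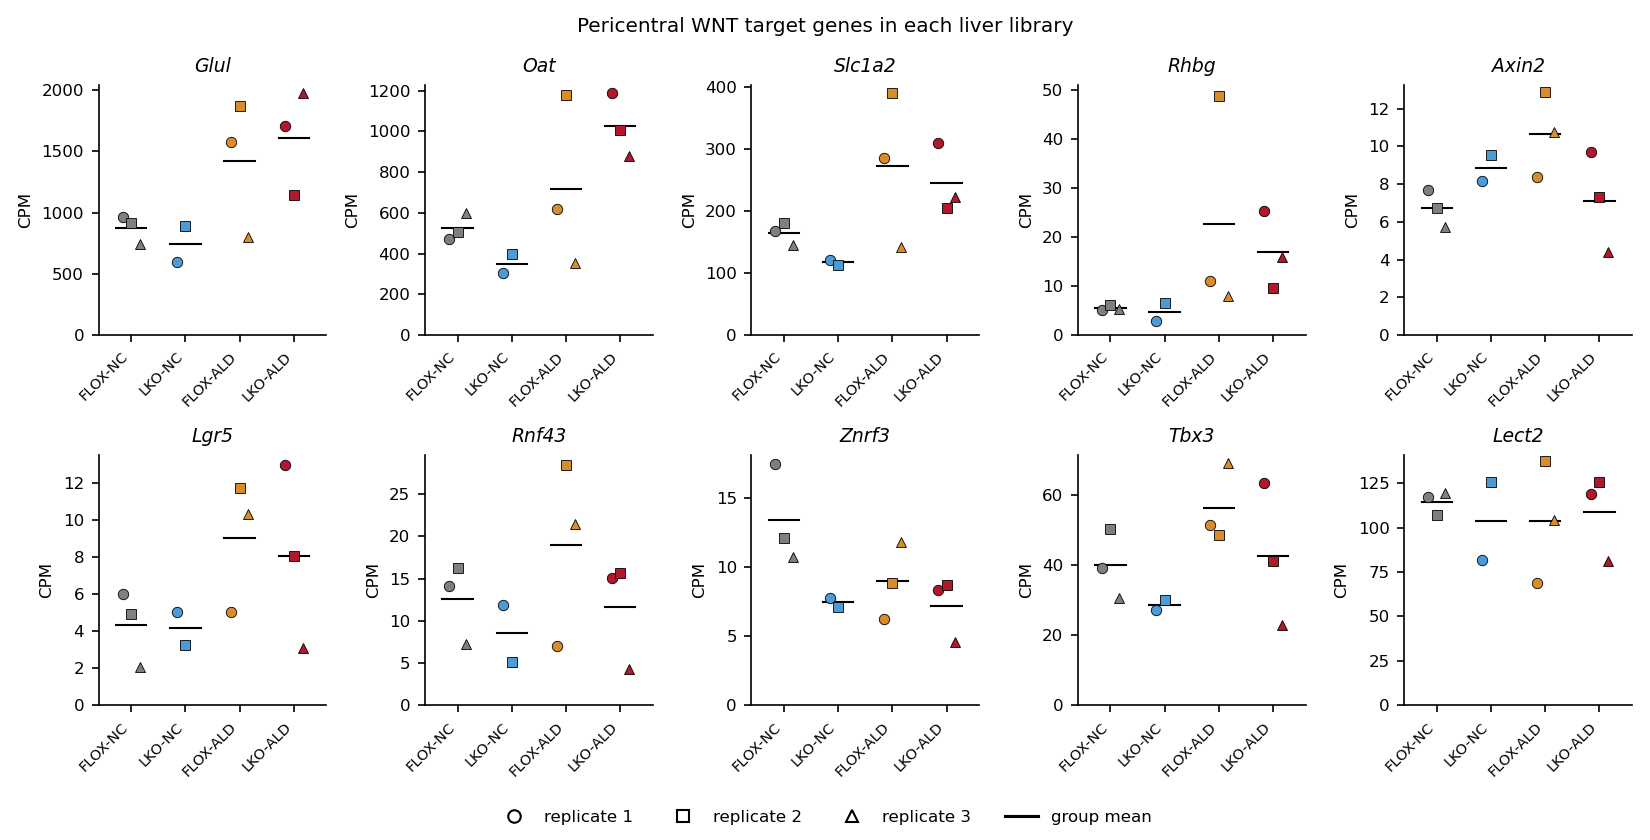
TMM-scaled CPM (linear axis from 0) of each of the 10 genes in the 11 libraries, with 1 point per library, the marker shape giving the replicate and the black line the group mean. Glul, Oat, Slc1a2 and Rhbg are higher in LKO-ALD than in LKO-NC without overlap, and FLOX-ALD replicate 3 is low for the first 3.

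None of the 4 genes passed adjustment over all genes in either genotype by edgeR's quasi-likelihood test. In Cre mice the log2 difference between NIAAA diet and control feeding was 1.55 for Oat (SE 0.431, edgeR adjusted p = 0.0899), 1.11 for Glul (SE 0.396, adjusted p = 0.152), 1.07 for Slc1a2 (SE 0.365, adjusted p = 0.139) and 1.85 for Rhbg (SE 0.757, adjusted p = 0.216). DESeq2 on the same counts called all 4, with adjusted p of 0.00629 for Oat, 0.039 for Glul, 0.0497 for Slc1a2 and 0.0491 for Rhbg, and called none of the other 6. DESeq2 called 9.75% of the genes to which it gave an adjusted p, and edgeR 0.957% of those tested. Each of the 4 was higher in Cre mice on the diet with no overlap between the groups, as were 20.1% of all genes tested. Without LKO-NC replicate 1, which had a mitochondrial share of 25.3%, the differences were 1.37 for Oat, 0.855 for Glul, 1.115 for Slc1a2 and 1.385 for Rhbg, and the lone Cre control was then assumed to vary like the other groups. With mitochondrial genes left out before scaling, edgeR called none of the 10 genes in any comparison.

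In floxed mice the difference was 2.04 for Rhbg (SE 0.655, edgeR adjusted p = 0.242) and 0.73 for Slc1a2 (SE 0.317, adjusted p = 0.355). It was 0.70 for Glul and 0.45 for Oat, whose intervals included 0. DESeq2 called Rhbg alone (adjusted p = 0.0189), where it called 4.2% of genes and edgeR 0.221%. The value of Rhbg rested on FLOX-ALD replicate 2, without which it was 0.79 (adjusted p = 0.384), that of Slc1a2 was then 0.37 and that of Oat turned to −0.13. Without FLOX-ALD replicate 1, the library that went against its label, the differences were 2.38 for Rhbg and 0.70 for Slc1a2, and the smallest adjusted p among the 10 genes was 0.248. Without FLOX-ALD replicate 3 they were 2.46 and 1.06, with a smallest adjusted p of 0.101. A higher level in bulk tissue can come from more cells of a type or from more RNA per cell, and these cannot be told apart here.

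The diet differences of the feedback and receptor genes were not all of 1 sign, and no difference between these genes and the nitrogen genes was tested. Axin2 encodes a scaffold of the complex that degrades beta-catenin (ENSMUSG00000000142, chr11:108920349-108950783, + strand). It stood at 7.70, 6.71 and 5.75 CPM in the floxed controls, 8.19 and 9.53 in the Cre controls, 8.39, 12.85 and 10.7 in floxed mice on the diet and 9.67, 7.31 and 4.38 in Cre mice on the diet. FLOX-ALD exceeded FLOX-NC without overlap, while LKO-ALD reached from the lowest value of all to just above LKO-NC. The diet difference was 0.67 (SE 0.29, edgeR adjusted p = 0.355) for floxed mice and −0.32 for Cre mice, where the interval of −1.01 to 0.38 included 0. Higher floxed libraries on the diet with no overlap were seen for Axin2 and Rhbg among the 10 genes and for 9.42% of all genes tested.

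Lgr5, the R-spondin receptor gene (ENSMUSG00000020140, chr10:115450311-115587780, - strand), was measured at 6.01, 4.94 and 2.08 CPM in the floxed controls, 5.05 and 3.27 in the Cre controls, 5.02, 11.75 and 10.3 in floxed mice on the diet and 12.96, 8.07 and 3.07 in Cre mice on the diet. In each genotype 2 of 3 NIAAA libraries lay above the controls, while FLOX-ALD replicate 1 lay within them and LKO-ALD replicate 3 lay below them. The log2 difference was 1.05 (SE 0.524, edgeR adjusted p = 0.425) for floxed mice and 0.95 for Cre mice, with an interval of −0.36 to 2.25.

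Rnf43 and Znrf3 encode membrane ubiquitin ligases that remove WNT receptors (ENSMUSG00000034177, chr11:87662722-87735539, + strand, and ENSMUSG00000041961, chr11:5276324-5444847, - strand). Rnf43 read 14.1, 16.2 and 7.28 CPM in the floxed controls, 11.9 and 5.15 in the Cre controls, 7.06, 28.4 and 21.4 in floxed mice on the diet and 15.03, 15.7 and 4.32 in Cre mice on the diet, and its groups overlapped in every comparison. Znrf3 read 17.5, 12.1 and 10.8 CPM in the floxed controls, 7.82 and 7.15 in the Cre controls, 6.23, 8.90 and 11.8 in floxed mice on the diet and 8.36, 8.74 and 4.596 in Cre mice on the diet. Its 3 FLOX-NC libraries were above those of LKO-NC and LKO-ALD, and FLOX-ALD replicate 3 fell inside their range. The diet differences of Rnf43 were 0.595 in floxed mice and 0.45 in Cre mice, and those of Znrf3 were −0.59 and −0.05, all with intervals that included 0. The assignment of Rnf43 counts to its transcripts varied between libraries from 0 to 91.4% for ENSMUST00000165679, and its effect on the gene's value was not tested.

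Tbx3 encodes a transcriptional repressor (ENSMUSG00000018604, chr5:119670669-119684724, + strand). Its libraries held 39.05, 50.4 and 30.7 CPM in the floxed controls, 27.2 and 29.98 in the Cre controls, 51.3, 48.6 and 69.1 in floxed mice on the diet and 63.5, 41.2 and 22.9 in Cre mice on the diet. The difference was 0.49 in floxed mice and 0.57 in Cre mice, both with intervals that included 0. Tbx3 shares 1.74% of its exon bases with the antisense gene Tbx3os1, and Glul 3.49% with Teddm2, and without a stated strand setting reads there cannot be told apart. Lect2 encodes a protein secreted by hepatocytes (ENSMUSG00000021539, chr13:56542464-56548502, - strand). It ranged from 107 to 119.5 CPM in the floxed controls, from 81.5 to 125.5 in the Cre controls, from 68.6 to 137 in floxed mice on the diet and from 81.1 to 125 in Cre mice on the diet. Its diet difference was −0.15 in floxed mice (95% interval −0.75 to 0.45) and 0.07 in Cre mice (−0.60 to 0.74), the closest to 0 among the 10 genes in floxed mice.

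**Figure D2:**
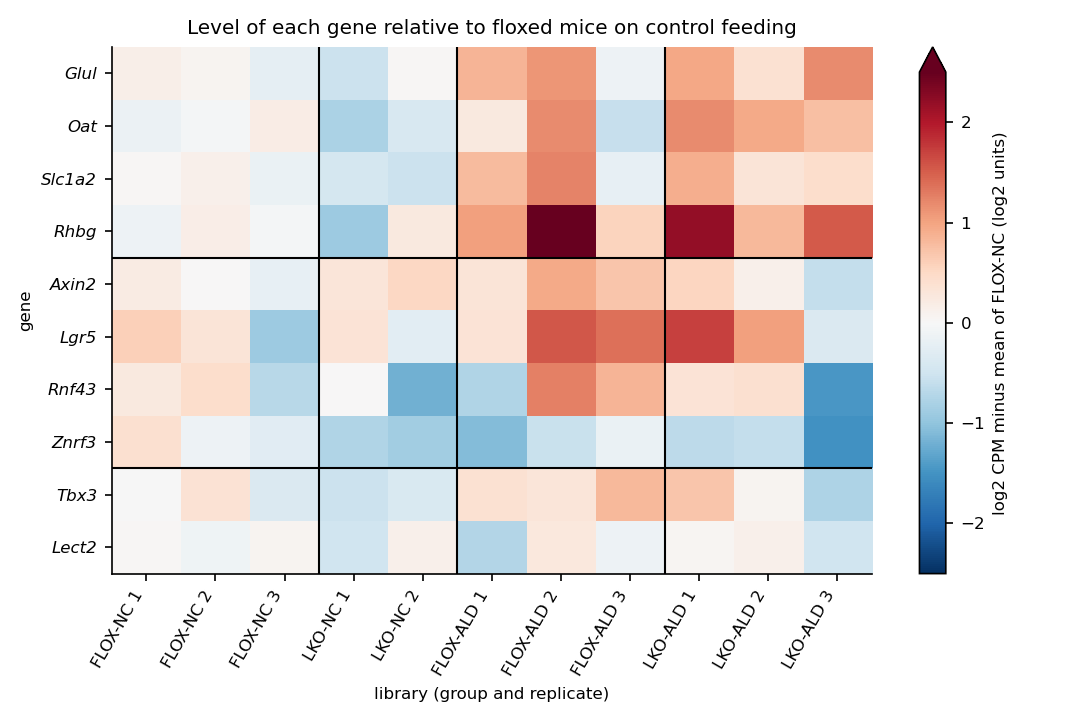
Log2 CPM of each of the 10 genes in each library minus the gene's mean in FLOX-NC, with red above and blue below that mean. Black lines part the 4 groups and the nitrogen, feedback and other genes, the colour of Rhbg in FLOX-ALD replicate 2 is at the top of the scale, and FLOX-ALD replicate 3 and LKO-ALD replicate 3 show opposite signs in the upper and middle blocks for Glul and Axin2.

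In LKO-ALD replicate 3 Glul and Axin2 stood at opposite ends of the 11 libraries, though over all libraries their r was 0.016. FLOX-ALD replicate 3 held Glul within the floxed controls, at 802 CPM, and Oat and Slc1a2 below them, at 352.5 and 143 CPM, with Rhbg above them, at 8.05 CPM. It held Axin2, Lgr5 and Rnf43 above every floxed control, at 10.7, 10.3 and 21.4 CPM, and Znrf3 within them, at 11.8 CPM. LKO-ALD replicate 3 held the highest Glul of all 11 libraries, at 1978 CPM, and the lowest Axin2, Rnf43, Znrf3 and Tbx3, at 4.38, 4.32, 4.596 and 22.9 CPM. Its Oat, at 880 CPM, was the lowest of its group, and its Slc1a2 and Rhbg, at 223 and 15.98 CPM, lay between the others. FLOX-ALD replicate 2 held the highest Rhbg, Slc1a2, Axin2 and Rnf43 of all libraries, and its Glul was high as well, at 1874 CPM.

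Across the 11 libraries, Pearson's r of log2 CPM was 0.833 to 0.887 for the 6 pairs among Glul, Oat, Slc1a2 and Rhbg. It was 0.237 to 0.822 for the 6 pairs among Axin2, Lgr5, Rnf43 and Znrf3, and −0.493 to 0.539 for the 16 pairs between these sets. After each group's mean was taken off, the ranges were 0.671 to 0.864, 0.765 to 0.916 and −0.498 to 0.424. These values are descriptions of 11 libraries in 4 groups, whose points share library, depth and scaling. Among 12836 genes with a mean of at least 1 CPM, those most like Glul were Apom (r = 0.984), Odc1 (0.968) and Mrps23 (0.967), and those most like Axin2 were Man1a2 (0.852), Naprt (0.852) and Dusp6 (0.839).

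As a whole the 10 genes leaned higher on the diet without any edgeR call. In floxed mice 8 of 10 differences were above 0, with a median of 0.63 against 0.07 over all genes, and 3 genes, Rhbg, Slc1a2 and Axin2, had an unadjusted p under 0.05. In Cre mice 8 of 10 were above 0, with a median of 0.76 against −0.001, and 4 genes, Glul, Oat, Slc1a2 and Rhbg, had one. Over all genes, 55.1% of differences were above 0 in floxed mice and 49.9% in Cre mice. The share of all genes with an unadjusted p under 0.05 was 13.1% and 19.5%. Limma voom called none of the 10 in either genotype.

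A comparison of diet averaged over both genotypes was added after the values of the 10 genes had been seen. There edgeR called none of the 10, against 4.61% of all genes, and 6 had an unadjusted p under 0.05, against 22.7% of all genes. The 4 nitrogen genes were nearest to the threshold, with Slc1a2 at 0.90 (SE 0.242, edgeR adjusted p = 0.0547), Rhbg at 1.95 (SE 0.504, adjusted p = 0.0578), Oat at 0.997 (SE 0.28, adjusted p = 0.0617) and Glul at 0.91 (SE 0.262, adjusted p = 0.0665). Lgr5 stood at 1.0 (SE 0.398, adjusted p = 0.161) and Tbx3 at 0.53 (SE 0.239, adjusted p = 0.208). DESeq2 called the 4 nitrogen genes, with 14.7% of all genes called. Without FLOX-ALD replicate 3 edgeR called the same 4, at adjusted p of 0.0101 to 0.0224, and without FLOX-ALD replicate 2 it called Rhbg alone (adjusted p = 0.0249), at 1.32. Calls over all genes also moved between fits without 1 library, over the range given in the last section. These counts can therefore not be read as particular to the 10 genes. Without FLOX-ALD replicate 1 the values of Slc1a2, Rhbg, Oat and Glul were 0.88, 2.12, 1.05 and 0.87, and without LKO-NC replicate 1 they were 0.92, 1.72, 0.91 and 0.78, none of them called. Rhbg alone showed no overlap between the 6 NIAAA and 5 control libraries, as did 2.25% of all genes in that direction.

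**Figure D3:**
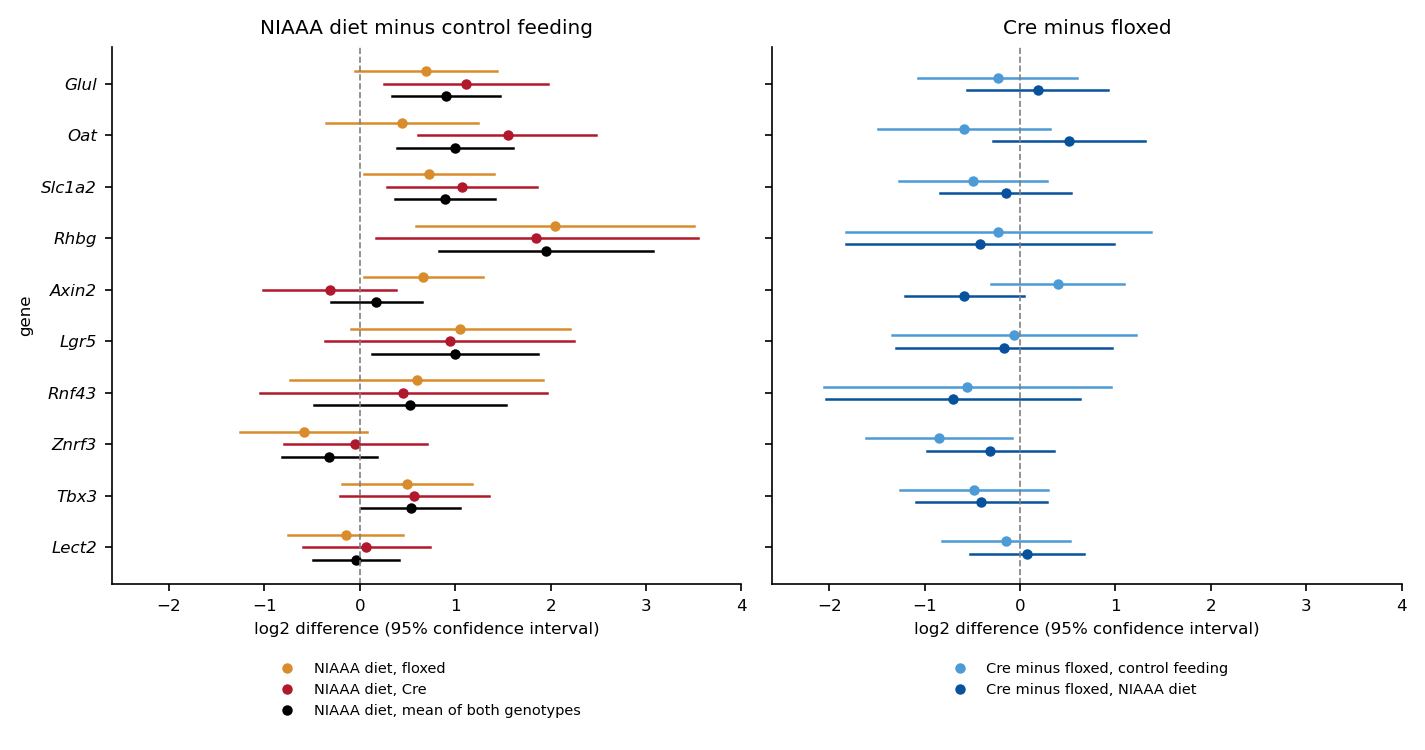
Log2 difference of each of the 10 genes with its 95% confidence interval from the edgeR fit, for the diet comparisons on the left and the genotype comparisons on the right. The averaged diet interval lies above 0 for Glul, Oat, Slc1a2, Rhbg, Lgr5 and Tbx3, and the genotype intervals include 0 for all genes but Znrf3 on control feeding.

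Between genotypes on control feeding, 9 of the 10 differences were below 0, with a median of −0.36 against 0 over all genes, of which 50% were above 0. Znrf3 had the largest, at −0.85 (SE 0.354, edgeR adjusted p = 0.745). EdgeR called none of the 10, and 0.0105% of all genes, and 1 of the 10 had an unadjusted p under 0.05, against 6.52% of all genes. Tbx3, Oat, Slc1a2 and Znrf3 were lower in both LKO-NC libraries than in all FLOX-NC libraries, as were 13.9% of genes, and Axin2 was higher without overlap, as were 15.1%. LKO-NC replicate 1, whose mitochondrial share was 25.3%, held the lowest Glul, Oat and Rhbg of all libraries, and the part of that share in these values was not tested. The Znrf3 difference was −0.92 without it (adjusted p = 1).

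On the NIAAA diet the genotypes overlapped for all 10 genes. Of the 19014 genes tested, 1207 were higher and 1190 lower in Cre mice with no overlap. The differences ran from −0.70 for Rnf43 to 0.52 for Oat, with a median of −0.24 against −0.03 over all genes. EdgeR called none of the 10 and 0% of all genes. None of the 10 had an unadjusted p under 0.05, against 8.05% of all genes. The interaction, the diet difference in Cre mice minus that in floxed mice, was −0.98 for Axin2 (SE 0.432, edgeR adjusted p = 0.527) and 1.105 for Oat (SE 0.554, adjusted p = 0.561). EdgeR called none of the 10 and 0.00526% of all genes. Of the 10, 1 had an unadjusted p under 0.05 for the interaction, against 9.37% of all genes. The Axin2 value was −0.69 without LKO-ALD replicate 3, and the Oat value 1.66 without FLOX-ALD replicate 2 and 0.76 without FLOX-ALD replicate 3. DESeq2 and limma voom called none of the 10 in either genotype comparison or in the interaction.

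Upstream of these targets, the ligand genes had diet differences above 0 in both genotypes, for some of them in floxed mice through FLOX-ALD replicate 2. Wnt2, Wnt4 and the secretion gene Wls lay above all floxed controls in that library alone of FLOX-ALD, at 5.78, 3.86 and 4.49 CPM. Of 25 WNT ligand, R-spondin and secretion genes, 12 were tested. Wnt11 was left out of the summary because its counts were 0 in all FLOX-NC libraries. All 11 others had differences above 0 in floxed and in Cre mice, with medians of 1.146 and 0.845, but edgeR called none in either genotype, and 5 in each had an unadjusted p under 0.05. Rspo1 among them passed the filter on low counts through FLOX-ALD replicate 2 and LKO-ALD replicate 2, at 0.513 and 0.4045 CPM. It was at most 0.124 CPM in the controls, so its sign was set in part by the filter. Rspo3, the R-spondin of the central vein and the most abundant of them by mean CPM, read 4.21, 5.93 and 5.24 CPM in the floxed controls, 6.09 and 5.11 in the Cre controls, 6.34, 22.7 and 6.59 in floxed mice on the diet and 17.5, 12.35 and 16.15 in Cre mice on the diet. Its NIAAA libraries all exceeded the controls, and FLOX-ALD replicates 1 and 3 did so by little.

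In the averaged comparison edgeR called Rspo3 at 1.33 (SE 0.325, adjusted p = 0.0391), Wnt5b at 0.997 (SE 0.261, adjusted p = 0.0493) and Wnt5a, a ligand known mainly for signalling without beta-catenin, at 2.42 (SE 0.441, adjusted p = 0.014). Wnt5a lay at 0.131 to 0.911 CPM in the control libraries and at 2.22 to 3.63 in the NIAAA libraries, and its call was lost without LKO-NC replicate 1 (adjusted p = 0.0755). The call of Rspo3 was lost without any 1 of the 5 control libraries or LKO-ALD replicate 1 or 3, with adjusted p up to 0.141. That of Wnt5b was lost without any 1 control library, FLOX-ALD replicate 1 or LKO-ALD replicate 1 or 2, with adjusted p up to 0.199. Wnt11 was called too (edgeR adjusted p = 0.0397), at no more than 0.304 CPM in any library. The call was lost in 10 of 11 fits without 1 library. Wnt11 passed the filter on low counts through NIAAA libraries and was at most 0.0417 CPM in the controls, so its sign was set in part by the filter.

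The 6 endothelial genes of the central vein, Wnt2, Wnt9b, Rspo3, Cdh13, Kit and Thbd, all had differences above 0 in both genotypes. Their medians were 1.0 in floxed mice and 1.485 in Cre mice, and edgeR called none. Wnt2, Wnt9b and Rspo3 were also counted among the ligand genes above, so the lists are not separate. The summed level of the 6 genes was 15.2 to 18.4 CPM in the floxed controls and 15.7 to 17.4 in the Cre controls. It was 21.1, 59.96 and 19.3 in floxed mice on the diet and 43.2, 40.01 and 58.7 in Cre mice on the diet. FLOX-ALD replicate 2 stood apart from replicates 1 and 3 here, as it did for Rhbg. Wnt2 and Wnt9b, the ligands of the central vein, are given although chosen after their values were seen. Wnt2 was 1.29, 5.78 and 0.692 CPM in FLOX-ALD against 1.38 to 1.76 in FLOX-NC, and 2.58 to 4.83 in LKO-ALD against 0.931 and 1.04 in LKO-NC. Wnt9b was 0.872 to 3.18 CPM in FLOX-ALD against 0.546 to 0.7375 in FLOX-NC, and 1.17 to 2.35 in LKO-ALD against 0.563 and 0.606 in LKO-NC. In the averaged comparison edgeR called Thbd, which encodes thrombomodulin, at 2.40 (SE 0.475, adjusted p = 0.0209), a call not kept when FLOX-NC replicate 2 or either Cre control was left out (adjusted p up to 0.115). The 9 general markers of sinusoidal endothelium summed to 230 to 249 CPM in the floxed controls, 297 to 324 in the Cre controls, 248.5 to 385 in floxed mice on the diet and 283 to 441.5 in Cre mice on the diet. Of these 9 markers, 9 had diet differences above 0 in floxed mice and 8 in Cre mice, with medians of 0.359 and 0.456. EdgeR called none of them within a genotype. Differences above 0 were therefore not particular to the genes of the central vein. The part of endothelial cell number in the ligand values was not tested.

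**Figure D4:**
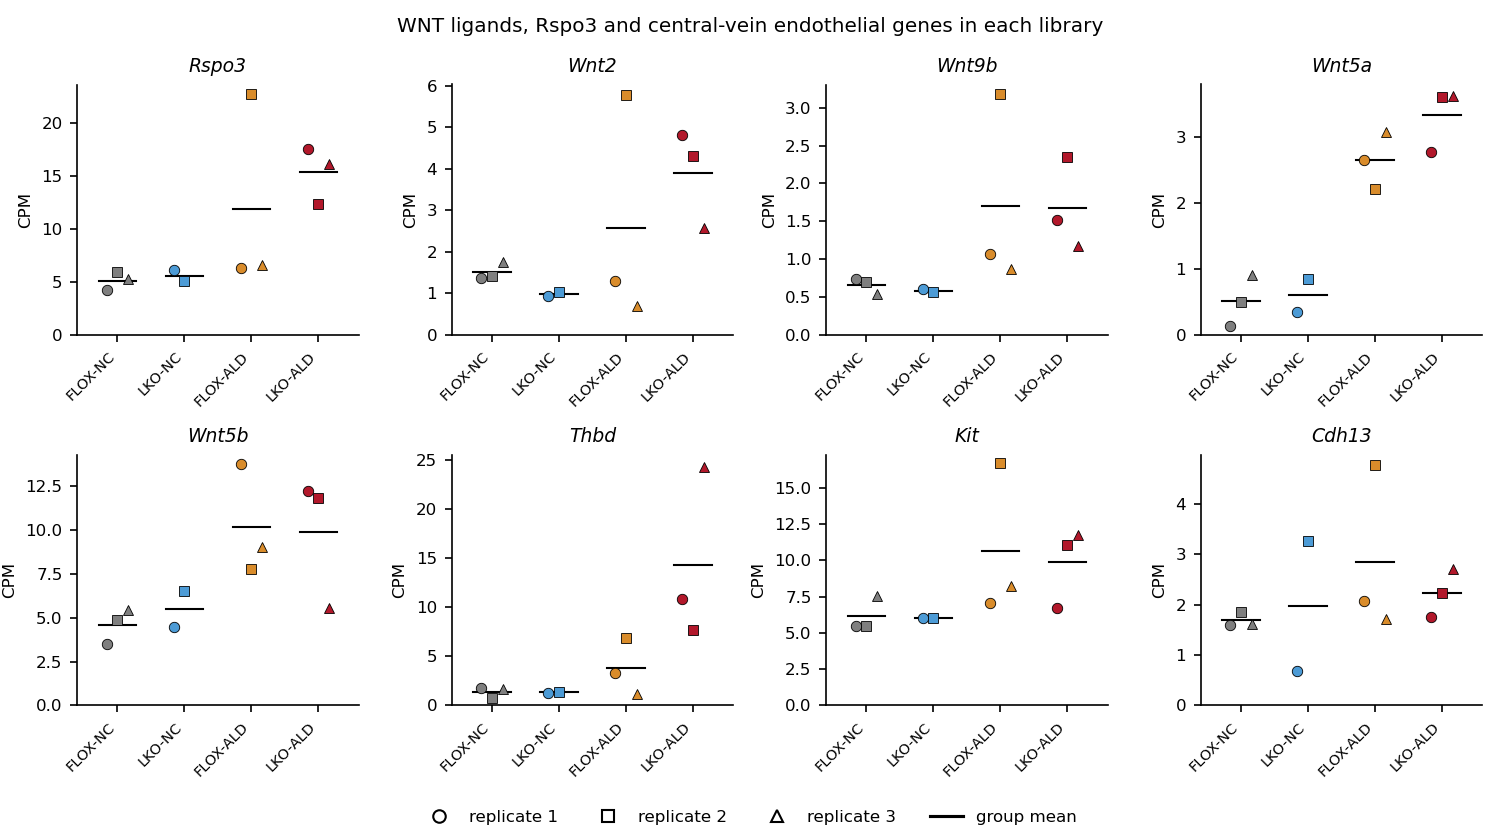
TMM-scaled CPM (linear axis from 0) of Rspo3, 4 WNT ligand genes and 3 other endothelial genes of the central vein in each library, with the marker shape giving the replicate and the black line the group mean. FLOX-ALD replicate 2 is the highest of its group for all but Wnt5a and Wnt5b, and Wnt5a separates the 6 NIAAA libraries from the 5 control libraries.

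Of the remaining steps of the pathway, most receptor genes had diet differences below 0 and most secreted inhibitors above 0, with no gene called within a genotype. Of 12 WNT receptor and co-receptor genes with counts in every group, which leaves out Fzd2, 2 were above 0 in floxed mice and 3 in Cre mice, and edgeR called none. Lrp6, a co-receptor, stood at 69.6 ± 5.19 CPM in the floxed controls, 69.6 ± 10.8 in the Cre controls, 50.3 ± 6.81 in floxed mice on the diet and 56.6 ± 8.335 in Cre mice on the diet (SD, n = 3, 2, 3 and 3), and Lgr4, a second R-spondin receptor, had diet differences of −0.395 and −0.13. Fzd4, a WNT receptor chosen after its values were seen, was 24.3 to 28.2 CPM in FLOX-NC and 6.61 to 15.6 CPM in the other 8 libraries, with a diet difference in floxed mice of −1.455 (edgeR adjusted p = 0.0657). Of 16 genes of the beta-catenin destruction complex and Dishevelled, 5 were above 0 in floxed mice and 8 in Cre mice, and none was called. Ctnnb1, which encodes beta-catenin, had differences of −0.14 and 0.63, and Dvl1, a Dishevelled, 0.46 and −0.23. In the averaged comparison Amer1, which helps to hold the complex at the membrane, was called at −0.79 (adjusted p = 0.031), and the call was lost without any 1 control library, FLOX-ALD replicate 1 or LKO-ALD replicate 1 or 3 (adjusted p up to 0.121). Among 14 TCF/LEF factors and co-factors, 8 and 5 were above 0 and none was called, with Tle1 at −0.35 and −0.19 and Bcl9l at −0.72 and −0.74. Of 7 secreted inhibitors with counts in every group, which leaves out Apcdd1, 5 and 6 were above 0 and none was called, with Notum at 0.54 and 0.07 (−0.12 in floxed mice without FLOX-ALD replicate 2) and Kremen1 at −0.08 and 0.42. Sfrp5 among them passed the filter on low counts through NIAAA libraries, at up to 0.646 CPM. It was at most 0.173 CPM in the controls, so its sign was set in part by the filter. Of 8 further WNT targets, 7 and 4 were above 0 with none called, and Ccnd1 stood at 0.75 and −0.07 and Myc at −1.34 and −1.25. In each of these pairs the first value is the log2 diet difference in floxed mice and the second that in Cre mice.

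Most other genes of the central-vein zone had diet differences above 0 and most genes of the portal zone below 0, the former in floxed mice only with FLOX-ALD replicate 2 included. Of 19 pericentral genes outside the 10, 13 were above 0 in floxed mice and 17 in Cre mice, with medians of 0.295 and 0.845, and edgeR called none in either. The most abundant by mean CPM were Cyp2e1, the ethanol-oxidizing cytochrome P450, with log2 differences of −0.51 in floxed and 0.845 in Cre mice, and Cyp2a5, another cytochrome P450, with 2.04 and 1.74. Without LKO-NC replicate 1, in which the list summed to 4373 CPM against 9246 CPM in replicate 2, the Cre value of Cyp2e1 was 0.27 and the median of the list 0.53. Without FLOX-ALD replicate 2, in which the list summed to 15350 CPM against 8274 and 6938 CPM in replicates 1 and 3, the floxed value of Cyp2a5 was 0.66 and that of Cyp2e1 −0.90, and the median turned to −0.04 with 9 of 19 above 0. The averaged value of Cyp2a5 was then 1.19. In the averaged comparison Cyp2c37 (1.40), Cyp2c29 (2.48), Cyp2a5 (1.89) and Slc22a3 (1.57) were called higher, the first 3 being cytochrome P450 genes and the last an organic cation transporter gene. Cyp27a1, a sterol hydroxylase gene, was called lower, at −1.07. Cyp2c37 and Cyp27a1 kept their calls without any 1 library, with adjusted p up to 0.0492 and 0.0223. Slc22a3 lost its call without LKO-NC replicate 1 or 2, Cyp2c29 without FLOX-NC replicate 2 or 3, LKO-NC replicate 1 or LKO-ALD replicate 1 or 3, and Cyp2a5 without any 1 control library or LKO-ALD library.

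Of 21 periportal genes, 20 were below 0 in floxed mice and 15 in Cre mice, with medians of −0.52 and −0.74. The urea cycle genes Cps1, Ass1, Asl and Arg1, chosen after their values were seen, were below 0 in floxed mice, at −0.22, −0.52, −0.255 and −0.42. In Cre mice they were above 0, at 1.28, 0.41, 0.39 and 0.35, and none was called in either genotype. Cps1 was below the floxed controls only in FLOX-ALD replicate 3, at 555.8 against 1240 to 1423 CPM. Ass1 and Asl were below them in all FLOX-ALD libraries, and Arg1 in replicates 2 and 3. LKO-NC replicates 1 and 2 differed, at 636.7 and 1299 CPM for Cps1 and 750.9 and 1307 CPM for Ass1. LKO-ALD lay above LKO-NC replicate 2 throughout for Cps1, and on both sides of it for the others. The part of single libraries in these signs was not tested. Pck1, the gluconeogenic enzyme gene, fell in floxed mice by 1.76 on the log2 scale (SE 0.302, edgeR adjusted p = 0.0428), from 3415 ± 537 CPM to 1008 ± 199 CPM (SD, n = 3 each), and of 6 fits that left out 1 floxed library only the one without FLOX-ALD replicate 2 called it (edgeR adjusted p 0.0477 to 0.179). In Cre mice it was −1.48 (adjusted p = 0.0524). The averaged comparison called Pck1 (−1.62), Sds (−1.02), Hal (−0.82), Gls2 (−0.96) and Cdh1 (−0.92). Gls2 encodes the liver glutaminase, which splits the product of Glul, Sds and Hal encode enzymes that break down serine and histidine, and Cdh1 encodes E-cadherin. Pck1 and Sds kept their calls without any 1 library, Hal lost it without LKO-NC replicate 2, and Gls2 and Cdh1 without any 1 control library or LKO-ALD replicate 1. The 5 periportal endothelial genes had medians of −0.096 in floxed mice and −0.098 in Cre mice and none was called, with Ltbp4 at −0.096 and −0.37 and Msr1 at 0.33 and −0.098.

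**Figure D5:**
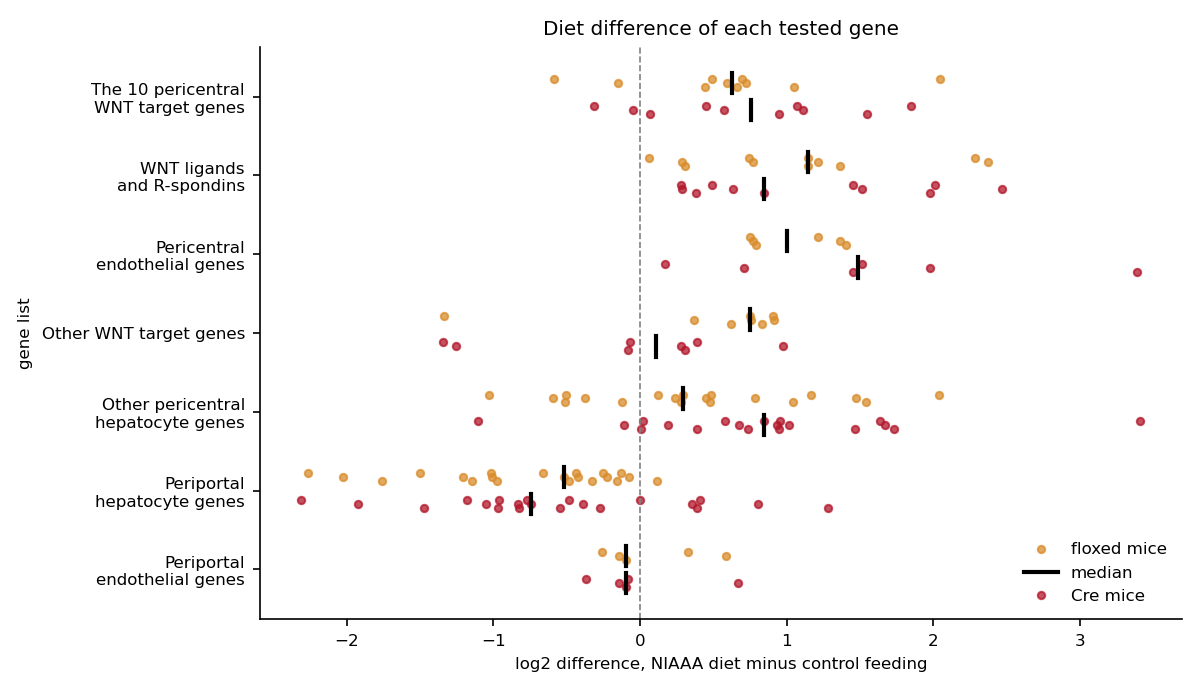
Log2 difference between NIAAA diet and control feeding for each tested gene of 7 lists, with floxed mice in orange, Cre mice in dark red and a black bar at the median. Points of the WNT ligand and central-vein endothelial lists, which share Wnt2, Wnt9b and Rspo3, lie above 0 in both genotypes. Most periportal points lie below 0, and Wnt11, with 0 counts in a whole group, is not plotted.

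Around the nitrogen genes, 13 of 16 further genes of glutamine, glutamate, ornithine and ammonia handling were tested, of which 6 and 8 were above 0 and none was called within a genotype. Slc38a3, a glutamine transporter gene, stood at −0.55 and −0.08 and Glud1, the glutamate dehydrogenase gene, at −0.27 and 0.25. Odc1, which makes putrescine from ornithine, was called in the averaged comparison at 1.55 (SE 0.304, edgeR adjusted p = 0.0193), a call not kept when FLOX-NC replicate 2 or either Cre control was left out (adjusted p up to 0.107). Odc1 was 26.8 CPM in FLOX-ALD replicate 3 and 74.4 to 112 CPM in the other 5 NIAAA libraries, against 19.1 to 39.5 CPM in the controls, and so was low in the library in which Glul was low.

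Some markers of other cell types were called lower on the diet, and those of hepatocytes, cholangiocytes and neutrophils were not called within a genotype or averaged. Hepatocyte markers summed to 117200 to 122100 CPM in the floxed controls, 82770 and 127300 in the Cre controls, 66500 to 136300 in floxed mice on the diet and 72510 to 98170 in Cre mice on the diet, and none of the 7 with values was at 0 in any library. Kupffer cell markers summed to 95.5 to 158 CPM in the floxed controls, 150.2 and 305 in the Cre controls, 85.1 to 225 in floxed mice on the diet and 38.6 to 93.4 in Cre mice on the diet, and in Cre mice all 7 were below 0 with Clec4f (−1.94, edgeR adjusted p = 0.0428) and Cd68 (−2.435, adjusted p = 0.0368) called lower. Clec4f lost its call without any 1 of the 5 Cre libraries and Cd68 without each but LKO-NC replicate 2. The stellate cell gene Col3a1 was called lower in Cre mice (−2.05, adjusted p = 0.0488) and lost its call without any 1 library, and the B cell gene Ighm was called lower in both genotypes (−2.19 and −2.54). In floxed mice Ighm lost its call without any 1 library, and in Cre mice without each but LKO-ALD replicate 2. In the averaged comparison Lyve1, of sinusoidal endothelium, was called higher (1.26), and the Kupffer gene Adgre1 (−1.295), the T cell gene Cd4 (−2.22), Clec4f, Cd68, Col3a1 and Ighm were called lower. Of these calls only that of Ighm was kept without any 1 library. The most abundant hepatocyte, cholangiocyte and neutrophil markers by mean CPM had diet differences in floxed and in Cre mice of −0.39 and −0.60 for Alb, −0.92 and −0.73 for Apoa1, −0.525 and −0.01 for Spp1, −0.03 and 0.34 for Epcam, 2.78 and −0.21 for S100a9 and 0.79 and −0.89 for Csf3r. S100a9 was 20.3 CPM in LKO-NC replicate 1 and 0.897 CPM in replicate 2, and without the first its difference in Cre mice was 3.35 and that of Csf3r 0.82. Cholangiocyte markers summed to 19.8 to 124 CPM, neutrophil markers to 3.66 to 53.8 and T cell markers to 0.409 to 5.11 over all libraries. The part of cell makeup in the values of the 10 genes was not tested.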

How the data were processed

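Liver RNA was sequenced from KAPA stranded mRNA and SMARTER mRNA libraries, per the labels' protocols. The submitters' processing notes name cutadapt, FastQC, HISAT2, StringTie, edgeR and build mm10; versions, strand and counting settings were not found in the labels, notes or headers. The deposited tables hold the authors' estimated counts, already whole, for genes and transcripts. They also hold FPKM values, a unit the deposited headers do not state and which was read from the values. The 10 genes and all gene lists were chosen with earlier results of these data known. Libraries were grouped by their labels; 11 of 12 were analysed where 12 had been planned for. Genes were filtered with filterByExpr (minimum count 10, total 15) and TMM-scaled. EdgeR 4.0.16 (R 4.3.3) fitted robust quasi-likelihood models with 4 group means (7 residual degrees of freedom), and p-values were adjusted by Benjamini-Hochberg over 19014 genes at 0.05. The biological coefficient of variation common to all genes was 42.2%, and 26.7% to 53% for the 10 genes singly, which limits precision. Alternatives used DESeq2 1.42.0, limma 3.58.1, other scalings and filters, and single libraries left out. The fit was tested on simulated counts that varied less than these data, with differences placed in FLOX-ALD only. That test does not show how the fit performs at the spread found here. Of the 10 genes, differences are named at an unadjusted p under 0.05 or a log2 size of at least 1; of each list, called genes or else the 2 most abundant are named, and any others are stated to be chosen after their values were seen. 1 marker gene of the lists is not reported here.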

Additional observations from a re-analysis of the deposited data

How the results depend on the processing

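Over 298 alternative values of the 17 named differences, 279 kept direction and side of the threshold, 19 newly passed it and 0 reversed. The 17 were chosen by p or size in the main fit, which made reversal less likely. None was called there, so no call could be lost. Some differences outside the 17 did reverse without 1 library, such as that of Oat in floxed mice, from 0.445 to −0.129. With DESeq2 the called count among the 10 genes was 1 for diet in floxed mice, 4 for diet in Cre mice and 4 for diet averaged over both genotypes, against 0 by edgeR. Without a filter on low counts it was 1 in Cre mice (Oat) and 3 in the averaged comparison (Glul, Oat and Slc1a2), and without robust fitting it was 1 in the latter (Rhbg). Leaving out 1 library gave 0 to 4 in the averaged comparison and 0 in the other 5, and the cause was not tested. Calls over all genes moved as well. They were 42 in floxed mice (2 to 146 without 1 library, 6 to 657 under other settings), 182 in Cre mice (6 to 138, 7 to 1526) and 877 averaged (175 to 1448, 519 to 2304). For genotype they were 2 on control feeding (1 to 21, 0 to 60) and 0 on the NIAAA diet (0 to 6, 0 to 124), and for the interaction 1 (0 to 8, 0 to 77). A replicate block on the number in the titles called 0 of the 10 genes in the diet comparisons, the interaction and the averaged comparison. Libraries with the same number correlated at −0.05 to 0.078, so the numbers were not taken to pair them. Values of list genes and list medians without single libraries were chosen after seeing the data.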
